A study of Rattus norvegicus with 30 samples.

Results

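The lipid droplet coat and CIDE genes are 7 genes, *Plin2*, *Plin3*, *Plin4*, *Plin5*, *Cidea*, *Cideb* and *Cidec*, chosen by name and among 14217 with a probe set of 1 symbol on the array. They hold 8 of 31042 probe sets: 1390383_at and 1382680_at (*Plin2*), 1372029_at (*Plin3*), 1372856_at (*Plin4*), 1381722_at (*Plin5*), 1389179_at (*Cidea*), 1391538_at (*Cideb*) and 1378739_at (*Cidec*). All 8 passed the filter on dim probe sets, which left 18625 for testing. Livers of 30 male Sprague-Dawley rats were measured with 1 Affymetrix array per animal, 5 animals on each of 6 diets. Rats arrived at 4 weeks of age, ate a commercial diet for 5 days and then an experimental diet for 14 days. Each diet held 200 g/kg of protein. Casein was the whole protein of C and of CI, and CI had isoflavones added. Soy protein was the whole protein of S and of SI, and SI had isoflavones added. In T20 freeze-dried tofu gave the whole 200 g/kg, and in T10 tofu and casein gave 100 g/kg each. The isoflavones of CI and SI were set to the amount in T20. C is the control for protein source, and CI for tofu at a matched amount of isoflavone.

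Perilipins coat the surface of the lipid droplet, the organelle in which hepatocytes keep triglyceride and cholesteryl ester, and they limit the access of lipases to it. *Plin2* (adipophilin) is the main constitutive droplet coat protein of hepatocytes, and *Plin3* (TIP47) moves from the cytosol onto newly formed droplets. *Plin5* couples droplets to mitochondria in tissues that burn fat, and *Plin4* coats small droplets, mostly in adipose tissue and muscle. The CIDE proteins sit on droplets as well: *Cidea* and *Cidec* promote the transfer of lipid from small to large droplets, and *Cideb* is the family member of normal hepatocytes and takes part in the lipidation of VLDL. Several of these genes are known targets of PPAR factors.

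The windows upstream of the 3 genes that differed across the diets are printed to show what they share and where they differ in common promoter motifs. Each is the 250 bases before the annotated start, 5′ to 3′ on the strand of the gene, from RefSeq on build GRCr8. All 7 genes had an entry. The window of *Plin3* is chr9:1210213-1210462 (minus strand), that of *Cidea* is chr18:63164567-63164816 (plus strand) and that of *Cideb* is chr15:33226408-33226657 (minus strand). Capitals mark matches, on either strand, to any of 5 motifs: CCAAT (the CCAAT box), GGGCGG (the GC box), CACGTG (an E box), a DR1 element, the form PPAR binds (2 copies of AGGTCA, 1 base apart) and TCACNCCAC (a sterol regulatory element).
Plin3: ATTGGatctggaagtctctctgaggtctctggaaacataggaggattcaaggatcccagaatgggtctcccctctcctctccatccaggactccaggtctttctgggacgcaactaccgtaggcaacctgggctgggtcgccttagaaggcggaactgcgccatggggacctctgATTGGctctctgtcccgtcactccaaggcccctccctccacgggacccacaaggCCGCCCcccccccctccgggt
Cidea: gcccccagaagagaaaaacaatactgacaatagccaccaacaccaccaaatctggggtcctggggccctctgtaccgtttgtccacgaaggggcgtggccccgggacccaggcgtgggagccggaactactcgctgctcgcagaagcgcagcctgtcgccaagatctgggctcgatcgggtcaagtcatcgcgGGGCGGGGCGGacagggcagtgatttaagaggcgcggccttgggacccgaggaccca
Cideb: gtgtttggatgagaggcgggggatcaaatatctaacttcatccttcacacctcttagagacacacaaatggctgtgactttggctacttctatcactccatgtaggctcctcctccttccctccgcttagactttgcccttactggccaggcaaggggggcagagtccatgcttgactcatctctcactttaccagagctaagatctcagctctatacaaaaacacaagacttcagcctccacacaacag
*Plin3* held 2 CCAAT boxes and 1 GC box, *Cidea* 2 GC boxes that overlap, and *Cideb* no match. A CCAAT box was found in 34.3% of 27457 such windows, 1 for each gene, and a GC box in 32.4%. An E box was in 5.79% of windows, a sterol regulatory element in 0.976% and a DR1 element in 0.0546%. Among the 7 genes an E box was found for *Plin2* alone. In the GRCr8 annotation *Plin4* and *Plin5* are neighbours on chromosome 9, and *Plin3* lies on the same chromosome with 7 protein-coding genes between it and *Plin5*.

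Values are log2 of the deposited intensity. A difference is on that scale ± SE with 5 livers per diet, and adjusted p-values are from limma with Benjamini-Hochberg adjustment over all 18625 tested probe sets, with 0.05 as the threshold. Levels of different probe sets are not comparable, so each gene is compared only with itself. Median intensity per array was 216.9 to 254.7. GAPDH control probe sets, whose 3' over 5' signal marks RNA length, had ratios from 1.32 to 1.58 on the arrays of T10 replicates 3, 4 and 5, against 0.97 to 1.25 elsewhere, while the beta-actin ratio of those 3 arrays lay within the range of the others. Hepatocyte markers were bright in every diet, with 7 of 7 measured genes tested. Of 8 measured adipocyte markers 4 were tested, *Lipe* (mean 10.01), *Cfd* (9.68), *Slc2a4* (7.49) and *Fabp4* (7.48). The others, *Adipoq*, *Lep*, *Plin1* and *Ucp1*, had means below the filter level of 7.388. No tested marker of hepatocytes, adipocytes, stellate cells, Kupffer cells or muscle passed the F test across diets (limma, lowest adjusted p = 0.0564, *Cyp2e1*). In whole liver, fewer cells of a type and less RNA per cell cannot be told apart.

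Across the 6 diets *Plin3*, *Cidea* and *Cideb* differed by the moderated F test (adjusted p = 3.1e-05, 0.0217 and 0.0379), against 12.9% of all tested probe sets. *Plin2* (adjusted p = 0.0931), *Plin4* (0.943), *Plin5* (0.731) and *Cidec* (0.518) did not pass. *Cidea* did not pass without S replicate 4 (adjusted p = 0.0527). *Cideb* did not pass without any one of CI replicates 2, 4 and 5, S replicates 2, 3 and 4, SI replicates 2, 3 and 5 and T20 replicates 1 and 2 (0.053 to 0.0707), nor with equal median and spread (0.193), no filter (0.0568), array weights (0.0506) or T10 replicates 3, 4 and 5 left out (0.0521). *Plin2* passed without T10 replicate 1 (0.0275), after quantile normalization (0.0301) and with array weights (0.0281).

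**Figure D1:**
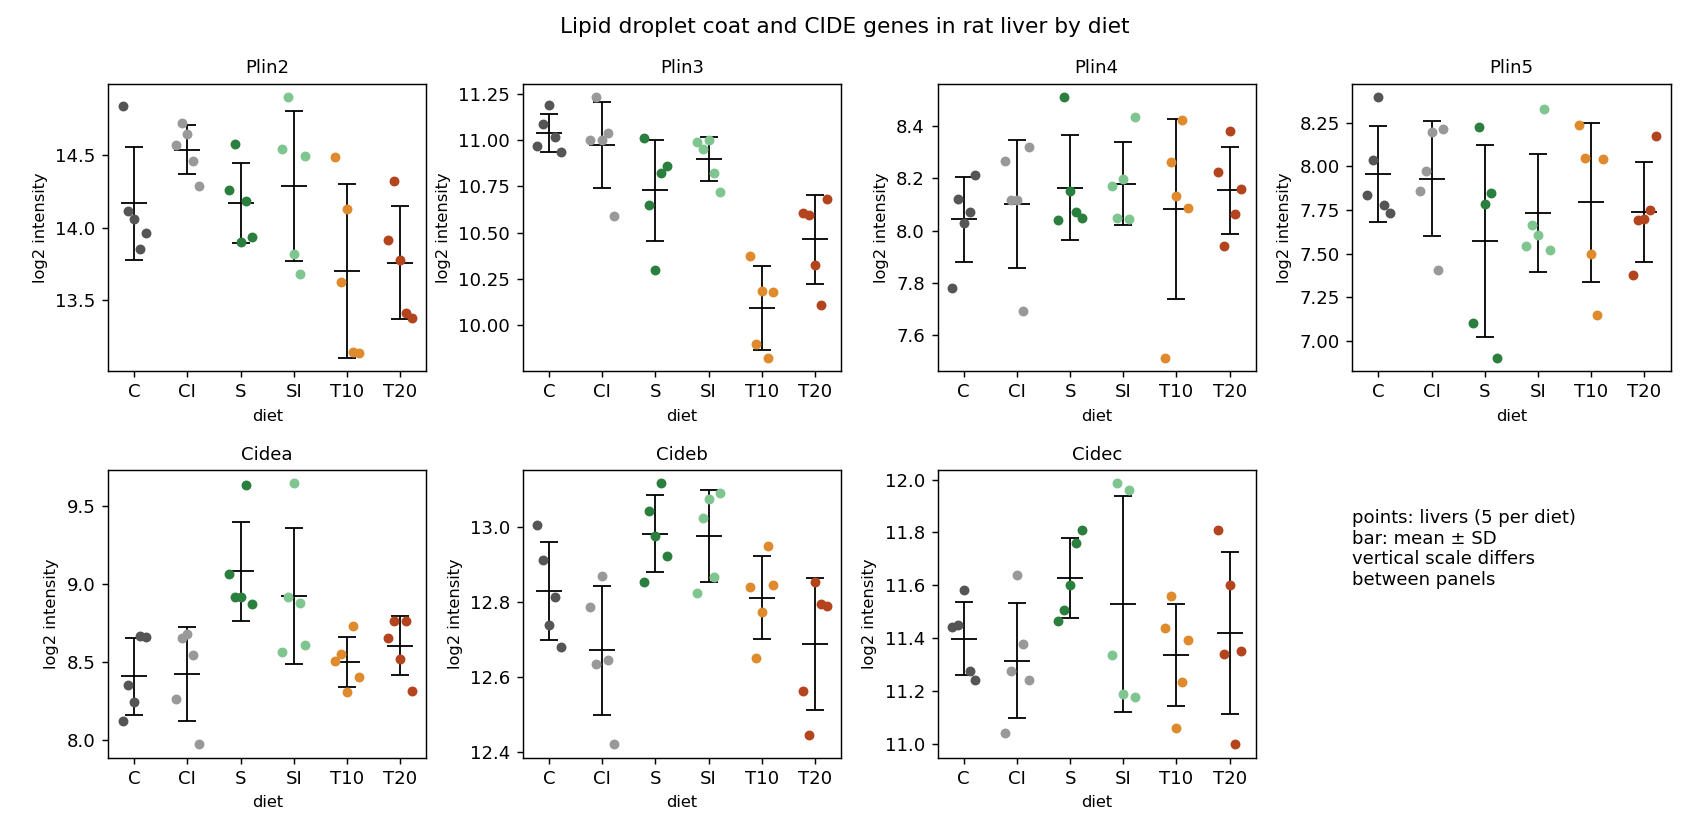
Log2 intensity (vertical axes, scaled separately) of each member in 30 livers, by diet (horizontal axes). Points are livers and bars show the mean ± SD (n = 5). *Plin3* sits lowest in T10 and next lowest in T20, *Cidea* and *Cideb* sit highest in S and SI, and *Plin4* has nearly level means.

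*Plin3* was lower in the livers of rats fed tofu. In C replicates 1 to 5 its log2 values were 10.97, 11.08, 11.19, 11.02 and 10.94, and in CI they were 11.00, 11.23, 11.00, 11.04 and 10.59. The casein diets thus lay close together, with CI replicate 5 the low value. In T10 they were 10.38, 9.90, 10.18, 9.82 and 10.18, and in T20 10.61, 10.59, 10.33, 10.11 and 10.68. Every liver of both tofu diets lay below every C liver. In S the values were 11.01, 10.65, 10.30, 10.82 and 10.86, and in SI 10.99, 10.95, 11.00, 10.82 and 10.72. S replicate 3 reached the level of the tofu livers, and the other soy livers did so only in S replicate 2. The 5 lowest of the 30 values were all from tofu livers, and 17 of the 20 livers without tofu lay above the highest tofu liver.

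From the highest mean to the lowest the order for *Plin3* was C (11.04 ± 0.10, SD), CI (10.97 ± 0.23), SI (10.90 ± 0.12), S (10.73 ± 0.27), T20 (10.46 ± 0.24) and T10 (10.09 ± 0.23). Only the step from T20 to T10 exceeded the larger SD of the pair. *Plin3* fell with T20 against C, at -0.58 ± 0.13, 1.49-fold lower (adjusted p = 0.0103), where 4.5% of probe sets were called, 2.74% as lower, and 3.02% lay lower without overlap. With T10 it fell further, at -0.95 ± 0.13, 1.93-fold lower (adjusted p = 0.000271), where 0.322% were called, 0.193% as lower, and 1.15% lay lower without overlap. Both comparisons share the C livers. Each call held with any 1 array left out, with adjusted p up to 0.0362 for T20 and 0.00226 for T10.

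The difference between the amounts of tofu, T20 against T10, was 0.37 ± 0.13 for *Plin3*, with the diet of less tofu lower. It did not pass (unadjusted p = 0.00763, adjusted p = 0.507). By limma 0 of 7 members passed there, and 0% of all probe sets were called. The unadjusted p was under 0.05 for 1 member and for 7.08% of all probe sets. T10 replicates 1 and 2, with GAPDH ratios like those of other diets, had *Plin3* values of 10.38 and 9.90, and T10 replicates 3 to 5 had 9.82 to 10.18. Without those last 3 arrays the difference of T10 from C was -0.90 (adjusted p = 0.0451).

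With isoflavone matched, *Plin3* was lower in T20 than in CI, at -0.51 ± 0.13 (adjusted p = 0.0328), where 2.12% of probe sets were called, 1.04% as lower. It was the 1 member of 7 that passed. CI replicate 5 and T20 overlapped. The call was lost without any one of CI replicate 1 (adjusted p = 0.0603), CI replicate 2 (0.0837), CI replicate 3 (0.0542), CI replicate 4 (0.0862), T20 replicate 3 (0.0745) and T20 replicate 4 (0.1), after median centring (0.0664), and with only the T20 and CI arrays (0.131).

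Tofu against soy protein at matched isoflavone gave -0.43 ± 0.13 for *Plin3* in T20 against SI. All 5 T20 livers lay below every SI liver, as 2.01% of probe sets did, and the adjusted p of 0.0564 missed the threshold. It passed without any one of CI replicate 5 (0.0418), S replicate 3 (0.0369) and T20 replicate 5 (0.042), after quantile normalization (0.0492) and after median centring (0.0326). By limma 0 of 7 members passed this comparison, and 3.51% of all probe sets were called. The unadjusted p was under 0.05 for 3 members (*Plin2*, *Plin3* and *Cideb*), and for 18.8% of all probe sets. *Plin3* with soy protein itself was -0.31 ± 0.13 in S against C (adjusted p = 0.15) and -0.08 ± 0.13 in SI against CI (0.744). The summed intensity of the 8 Kupffer cell and macrophage markers was 26624 to 30510 in C, 24557 to 38209 in T10, 25478 to 35425 in T20 and 18571 to 27776 in CI. In T20 against CI the median difference of these 8 markers was 0.33, beside -0.0047 over all probe sets. There 1 of 8 stellate cell markers was called higher, *Gfap* at 0.55 ± 0.15 (adjusted p = 0.0469), as were 1.08% of all probe sets. The median difference of the 8 stellate cell markers was 0.10. *Col1a1* (mean 9.64 in T20 and 10.07 in CI) and *Lrat* (9.29 and 9.51) were lower in T20. Their part in the *Plin3* results was not tested.

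**Figure D2:**
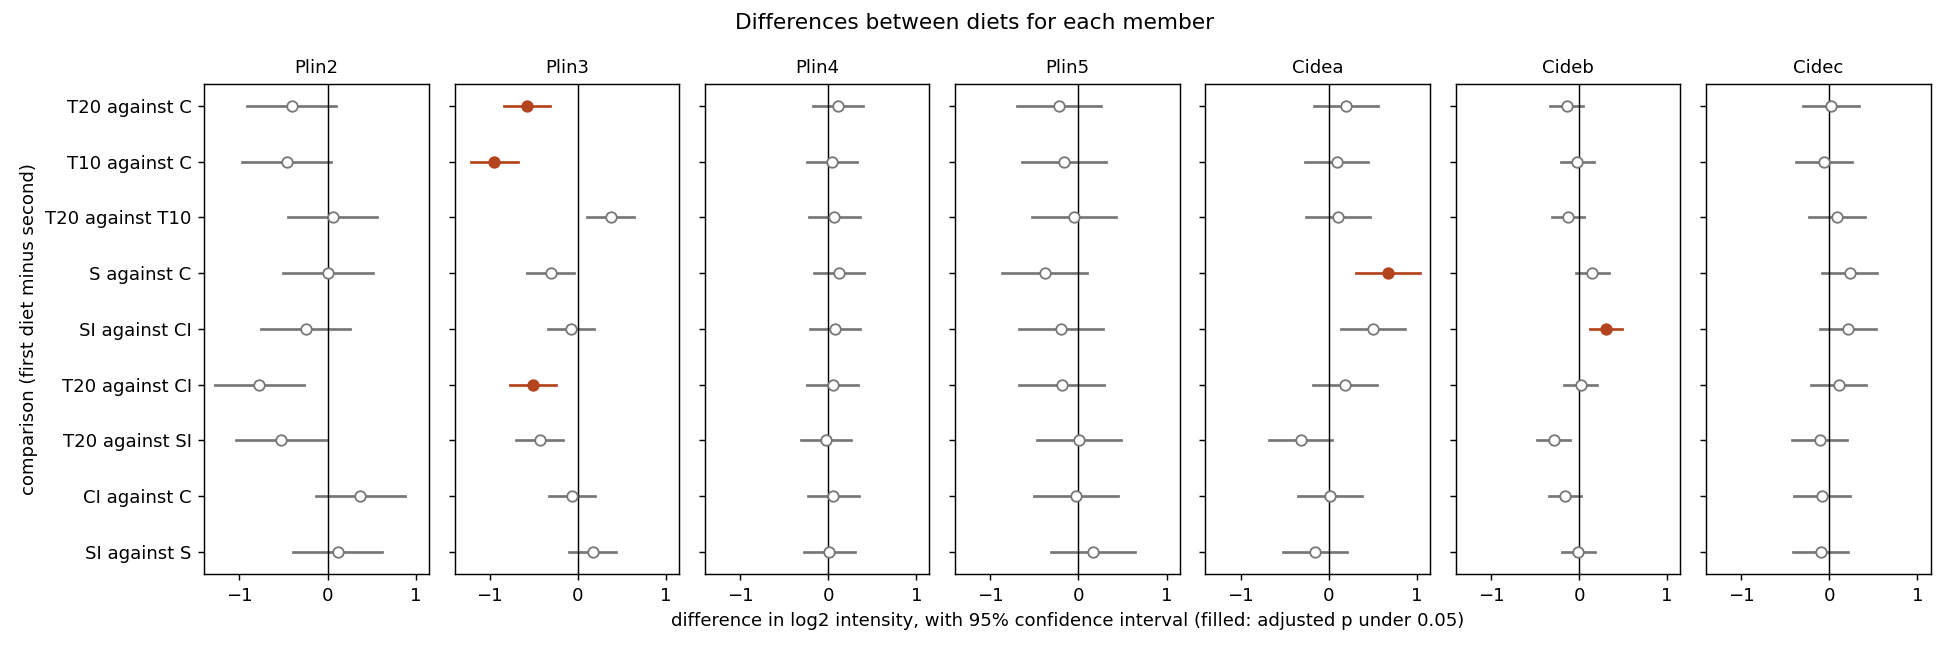
Differences in log2 intensity (horizontal axes) between pairs of diets (vertical axis, first minus second) for each member, with 95% confidence intervals from limma. Filled points passed an adjusted p of 0.05; these are *Plin3* in T20 and T10 against C and in T20 against CI, *Cidea* in S against C, and *Cideb* in SI against CI.

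*Plin2*, the constitutive coat protein, also had its lowest means in the tofu diets, with an SD of 0.17 to 0.60 per diet. On probe set 1390383_at, which represents the gene, its values in C replicates 1 to 5 were 14.84, 14.11, 14.06, 13.86 and 13.97, and in CI 14.57, 14.72, 14.65, 14.46 and 14.29. C replicate 1 stood above the other C livers. In T10 they were 14.49, 13.63, 14.13, 13.14 and 13.14, and in T20 13.91, 14.32, 13.78, 13.41 and 13.38. The lowest livers of each tofu diet were replicates 4 and 5, as they were in C and in CI. In S the lowest were replicates 3 and 5, and in SI replicates 3 and 4. Both tofu diets overlapped with C. In S they were 14.26, 14.58, 13.90, 14.18 and 13.94, and in SI 14.55, 14.90, 13.82, 13.68 and 14.50. The SI livers fell into 3 high and 2 low values.

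The order of means was CI (14.54 ± 0.17, SD), SI (14.29 ± 0.52), S (14.17 ± 0.27), C (14.17 ± 0.39), T20 (13.76 ± 0.39) and T10 (13.71 ± 0.60). Only the step from C to T20 exceeded the larger SD of its pair. The difference was -0.41 ± 0.25 for T20 against C (adjusted p = 0.368) and -0.46 ± 0.25 for T10 against C (0.554). Against CI it was -0.78 ± 0.25 for T20 (adjusted p = 0.0934), with a 95% confidence interval of -1.28 to -0.27. That difference passed after quantile normalization (0.0337) and when both probe sets were averaged (0.0497).

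The other *Plin2* probe set, 1382680_at, did not order the diets alike. Over the 30 arrays both probe sets correlated at r = 0.53 (r = 0.47 within diets), and 7 of 10 comparisons had the same sign. On 1382680_at the means were CI 9.10 ± 0.27 (SD), C 8.84 ± 0.29, T10 8.55 ± 0.41, T20 8.53 ± 0.33, SI 8.52 ± 0.21 and S 8.46 ± 0.15. The means of soy protein thus stood with those of tofu and below casein, but no step exceeded the larger SD of its pair. On this probe set S, T10 and T20 did not pass against C (limma, adjusted p = 0.209, 0.614 and 0.34). SI was lower than CI there, at -0.58 ± 0.18 (adjusted p = 0.031), and without overlap, as for 5.43% of probe sets. On 1390383_at the same comparison gave -0.25 ± 0.25 (adjusted p = 0.546). The call on 1382680_at was lost without any one of CI replicates 1, 2 and 4 and SI replicates 3 and 5 (0.0587 to 0.0868) and under each of the 3 other scalings (0.0534 to 0.0837). Both probe sets were lower in T20 than in CI, at -0.78 and -0.57 ± 0.18, and neither passed.

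**Figure D3:**
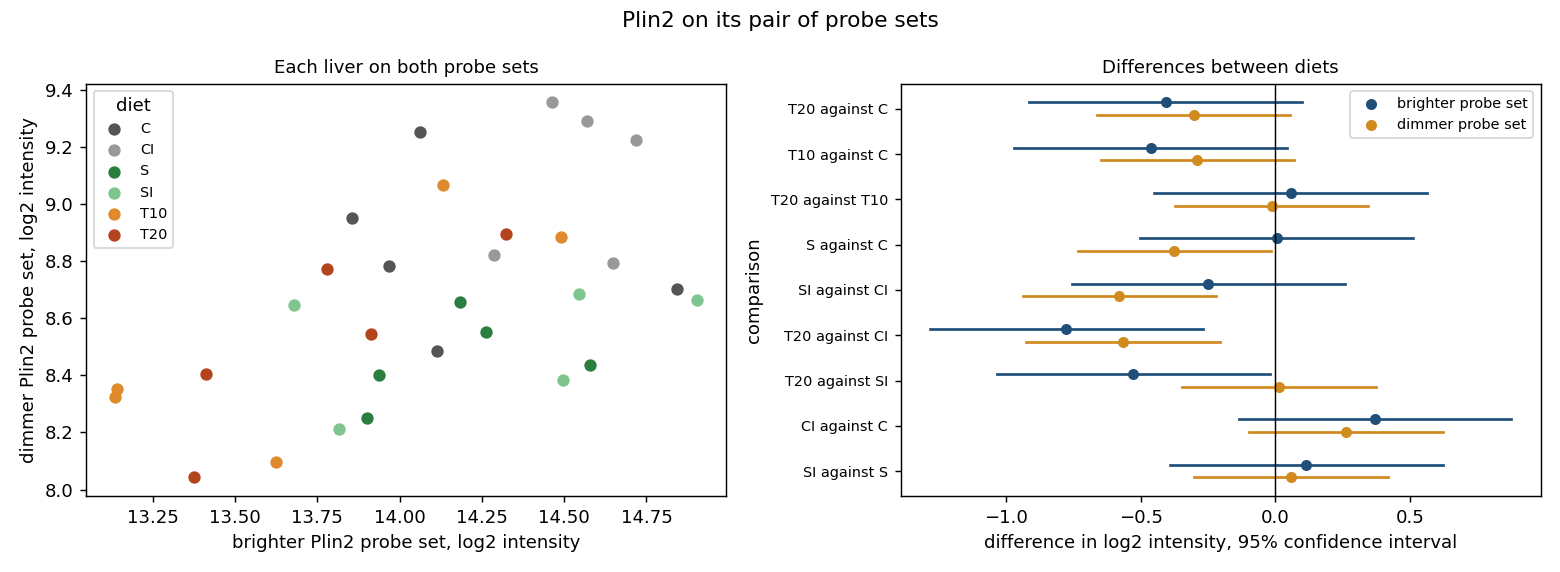
Left, log2 intensity of *Plin2* on 1390383_at, the brighter probe set (horizontal axis), and on 1382680_at, the dimmer one (vertical axis), each point a liver coloured by diet. Right, differences between pairs of diets on both probe sets with 95% confidence intervals. For tofu against casein the differences are below 0 on both probe sets. They lie farther apart for S against C, SI against CI and T20 against SI, where the intervals still overlap.

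*Plin4* and *Plin5* differed in 0 of 10 comparisons by limma, and neither had an unadjusted p under 0.05 in any. *Plin4* ranged from 7.51 to 8.51 over all 30 livers, and its diet means spanned 0.14, less than its median SD of 0.18. The 95% confidence interval of T20 against C was -0.18 to 0.40, so a change of 1.5-fold or more in measured intensity was outside it. The intensities of *Plin4*, 182.9 to 364.6, lay near the array medians of 216.9 to 254.7, which limits what can be seen of its RNA. *Plin5* ranged from 6.90 to 8.40 and its diet means from 7.57 ± 0.55 (SD) in S to 7.96 ± 0.27 in C. Its difference for S against C was -0.38 ± 0.23, with an interval of -0.86 to 0.09 (adjusted p = 0.359). In 4 livers, 2 of S and 1 each of T10 and T20, *Plin5* was dimmer than the level of the filter, which limits what can be seen of it. No pair of neighbours in the order of diets differed by more than the larger SD for either gene.

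Among the CIDE genes *Cidea* was higher with soy protein in S against C, while SI against CI did not pass. Its values in C replicates 1 to 5 were 8.12, 8.35, 8.24, 8.66 and 8.66, and in S 9.06, 8.91, 8.91, 9.63 and 8.87. Every S liver lay above every C liver, and S replicate 4 stood above the other S livers. In CI they were 8.26, 8.65, 8.68, 8.54 and 7.97, and in SI 8.56, 8.92, 9.64, 8.88 and 8.61. SI replicate 3 was the high value, and the lowest SI livers lay among those of CI. In T10 they were 8.50, 8.55, 8.30, 8.73 and 8.40, and in T20 8.65, 8.76, 8.52, 8.76 and 8.31. The tofu livers overlapped with the casein livers.

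*Cidea* means ran from S (9.08 ± 0.32, SD) through SI (8.92 ± 0.43), T20 (8.60 ± 0.19), T10 (8.50 ± 0.16) and CI (8.42 ± 0.30) to C (8.41 ± 0.25), and no step exceeded the larger SD of its pair. S was higher than C by 0.67 ± 0.18, 1.59-fold (adjusted p = 0.0166). In that comparison 7.25% of probe sets were called, 2.99% as higher, and 3.17% lay higher without overlap. The call was lost without C replicate 1 (adjusted p = 0.0513) and without S replicate 4 (0.0636). With isoflavone in both diets, SI against CI, the difference was 0.50 ± 0.18 (adjusted p = 0.0605). That passed without S replicate 4 (0.0441) and without SI replicate 1 (0.0373), after quantile normalization (0.0259), median centring (0.0185) and equal median and spread (0.0289). The soy protein effects with and without isoflavone differed by -0.17 ± 0.25 in *Cidea* (adjusted p = 0.833 for the interaction). Tofu against casein gave 0.20 ± 0.18 for T20 and 0.09 ± 0.18 for T10 (adjusted p = 0.568 and 0.903), and T20 against SI -0.32 ± 0.18 (0.328). Adipocyte markers are the list of the cell type best known for *Cidea*. They summed to 2624 to 3122 in C, 2390 to 2861 in S, 2655 to 3050 in CI and 2171 to 3414 in SI, overlapping in each case. *Lipe* and *Cfd* were the brightest genes in that sum, and *Adipoq*, *Lep*, *Plin1* and *Ucp1* lay below the filter level. Their part in the *Cidea* results was not tested.

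*Cideb* shifted by less and with a narrower spread. Its values in CI replicates 1 to 5 were 12.79, 12.64, 12.87, 12.64 and 12.42, and in SI 12.82, 13.02, 13.07, 12.87 and 13.09. CI replicate 3 alone reached into the range of SI. In C they were 13.01, 12.91, 12.74, 12.81 and 12.68, and in S 12.85, 13.04, 12.98, 13.12 and 12.92. These groups overlapped, with C replicates 1 and 2 among the S livers. In T10 they were 12.84, 12.65, 12.77, 12.95 and 12.85, and in T20 12.56, 12.45, 12.85, 12.79 and 12.79. T20 replicates 1 and 2 were lower than every liver of C.

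*Cideb* was higher in SI than in CI by 0.31 ± 0.09, 1.24-fold (adjusted p = 0.0273), in a comparison where 11.6% of probe sets were called, 5.5% as higher. It was the 1 of 7 genes that passed there. The call was lost without any one of CI replicate 4 (0.0579), CI replicate 5 (0.0965), SI replicate 2 (0.0606), SI replicate 3 (0.0554) and SI replicate 5 (0.0758), with equal median and spread (0.0949), and with only the SI and CI arrays (0.0622). S against C gave 0.15 ± 0.09 (adjusted p = 0.346), and the interaction was 0.15 ± 0.13 (0.691). T20 against SI gave -0.29 ± 0.09 (adjusted p = 0.0713), which passed after quantile normalization (0.0285) and median centring (0.0403). The order of means was S (12.98 ± 0.10, SD), SI (12.98 ± 0.12), C (12.83 ± 0.13), T10 (12.81 ± 0.11), T20 (12.69 ± 0.18) and CI (12.67 ± 0.17), and only the step from SI to C exceeded the larger SD. In SI against CI 2 of 7 hepatocyte markers were also called higher, *Serpina1* by 0.24 ± 0.06 and *Cyp2e1* by 0.43 ± 0.13 (adjusted p = 0.0157 and 0.0336). *Apob* went the other way, with a mean of 14.37 in SI and 14.82 in CI. The median difference of the 7 markers was 0.20, beside -0.02 over all probe sets. The summed markers were 360144 to 408223 in CI and 370714 to 471907 in SI. Their part in the *Cideb* result was not tested.

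*Cidec*, which drives the growth of large droplets, passed in 0 of 10 comparisons by limma, with 0 unadjusted p-values under 0.05. Its means ran from 11.63 ± 0.15 (SD) in S to 11.32 ± 0.22 in CI, and no step in the order exceeded the larger SD. In S the livers lay between 11.47 and 11.81 and in C between 11.24 and 11.58. The difference of S from C was 0.23 ± 0.15, with an interval of -0.09 to 0.55. SI had the widest spread, with replicates 2 and 4 at 11.99 and 11.96 and the other 3 livers between 11.18 and 11.34. T20 against C was 0.02 ± 0.15, with an interval of -0.29 to 0.34.

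**Figure D4:**
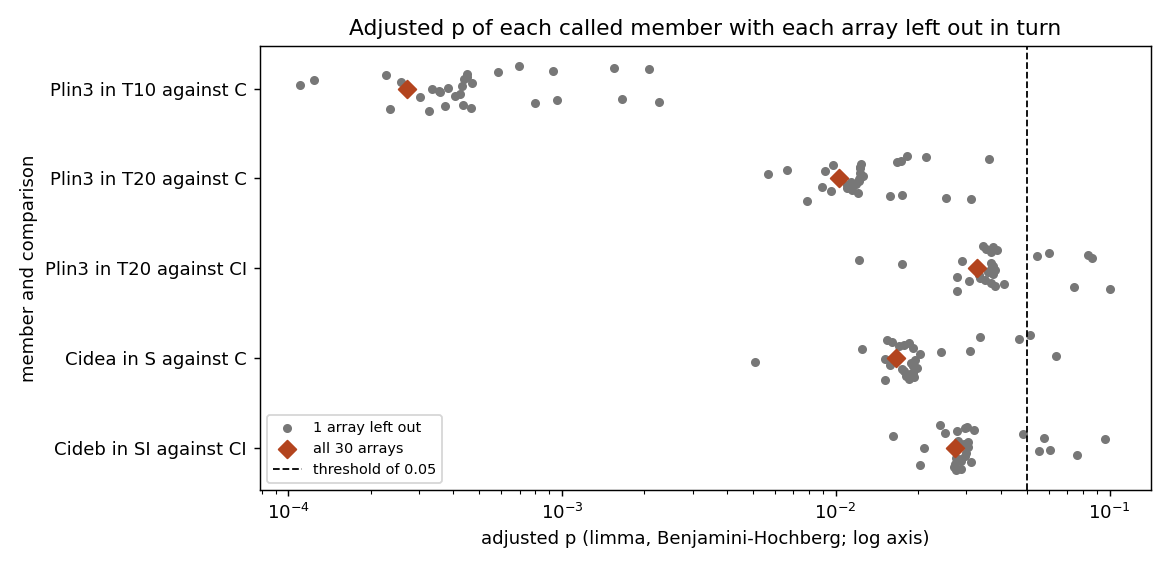
Adjusted p (horizontal axis, log scale) of the 5 member calls (vertical axis) with all 30 arrays (diamond) and with each array left out in turn (points); the dashed line is 0.05. Every point of *Plin3* in T10 and T20 against C lies left of the line, while 6 points of *Plin3* in T20 against CI, 2 of *Cidea* and 5 of *Cideb* lie right of it.

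Isoflavone added to either protein moved none of the members past the threshold. By limma 0 of 7 passed in CI against C and 0 of 7 in SI against S, and 0 of 7 had an unadjusted p under 0.05 in either. Over all probe sets 0% were called in both. The unadjusted p was under 0.05 for 8.62% of them in CI against C and for 3.57% in SI against S. The largest difference with isoflavone was in *Plin2*, at 0.37 ± 0.25 for CI against C, with an interval of -0.14 to 0.88. For *Plin3* it was -0.07 ± 0.13 on casein and 0.17 ± 0.13 on soy protein. The interaction of isoflavone and protein source was called by limma for 0 of 7 members and for 0.0161% of all probe sets. Its unadjusted p was under 0.05 for 0 members and for 9.21% of all probe sets.

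Pairs of the 7 genes were at most moderately correlated. Between pairs, r over the 30 arrays ran from -0.30 (*Plin5* with *Cidea*) to 0.60 (*Plin2* with *Plin3*), as a description of values that share arrays and diets. Within diets *Plin2* and *Plin3* correlated at r = 0.34, and the value farthest from 0 was -0.46, for *Plin3* with *Plin4*. *Cidea* and *Cideb* correlated at 0.49 over all arrays and 0.19 within diets. *Plin4* and *Plin5*, the neighbours on chromosome 9, had r = -0.07. The median difference of the 7 genes was -0.14 for T20 against C, beside -0.01 over all tested probe sets, and 0.12 for S against C beside -0.04.

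Of 10698 other genes tested, the 3 whose values ran most like *Plin3* over the 30 arrays were *Acot4* (r = 0.73, rho = 0.72), *Pgd* (0.73 and 0.82) and *Fasn* (0.71 and 0.76). Within diets these r were 0.34, 0.41 and 0.60. Most like *Cidea* were *Dnlz*, *Mrps25* and *Asb13* (r = 0.83, 0.81 and 0.80; rho = 0.78, 0.82 and 0.83), and most like *Cideb* were *Mrpl38*, *Ybx3* and *Slc26a1* (r = 0.80, 0.80 and 0.79; rho = 0.73, 0.72 and 0.71). Without the pair of arrays farthest from the median, r was 0.71, 0.74 and 0.71 for the genes like *Plin3* and 0.71 to 0.81 for the other 6. These genes were picked as the closest of all, so r has no p here.

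Of 10 measured lipases and cofactors of droplet triglyceride and its breakdown products, 4 passed the F test across diets, beside 12.9% of all tested probe sets. These were *Pnpla3*, *Ces1d*, *Mgll* and *Lipa*. Of the 10, 3 were called in T20 against C (1 higher, 2 lower), 3 in T10 against C (1 and 2), 4 in S against C (1 and 3) and 2 in SI against CI (1 and 1). Their median differences were -0.23, -0.27, -0.07 and -0.15, beside -0.01, -0.03, -0.04 and -0.02 over all probe sets, of which 4.5%, 0.322%, 7.25% and 11.6% were called. *Pnpla3*, which encodes adiponutrin, fell in each of those 4 comparisons (by 3.96 ± 0.47 in T20 against C, adjusted p = 1.067e-05) and *Ces1d*, a carboxylesterase that hydrolyses stored triglyceride, rose. *Ces1d* differed by 0.88 ± 0.16 in T20 against C and by 0.84 ± 0.16 in SI against CI (adjusted p = 0.00251 and 0.00137). In T10 against C it differed by 0.90 ± 0.16 (0.0079), and without T10 replicates 3, 4 and 5, which leaves 2 livers, by 1.04 (0.0873). *Pnpla3* in T10 against C was -3.03 (adjusted p = 0.00142) and without those 3 livers -2.69 (0.183). *Mgll* in T10 against C was -0.61 (adjusted p = 0.027) and without them -0.55 (0.42). Leaving out a single liver also ended that call for T10 replicates 2, 4 and 5 and for C replicates 1, 2 and 3 (0.0714 to 0.105). *Mgll*, monoacylglycerol lipase, fell with T20 by 0.74 ± 0.13 and with S by 0.72 ± 0.13 (adjusted p = 0.00153 and 0.00064); averaged over its probe sets, the T20 value was -0.36 (0.05003). *Lipa*, the lysosomal acid lipase, fell with S by 0.57 ± 0.11 (adjusted p = 0.00144). *Pnpla2* and *Abhd5*, the main triglyceride lipase of droplets and its activator, did not pass the F test (adjusted p = 0.767 and 0.221).

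Of 18 tested genes for droplet formation and other droplet proteins, 1 was called in T20 against C (higher), 0 in T10 against C, 2 in S against C (both lower) and 6 in SI against CI (4 higher, 2 lower), beside 4.5%, 0.322%, 7.25% and 11.6% of all probe sets. The 1 in T20 against C was *Hsd17b11*, a droplet dehydrogenase, at 0.25 ± 0.07 (adjusted p = 0.0409). Leaving out a single liver ended it for T20 replicates 1, 2 and 5 and for C replicates 1, 3, 4 and 5 (0.0616 to 0.107), which leaves 0 of 18, and it was kept in 29 of 46 alternatives. *Mettl7a*, a droplet-associated methyltransferase-like protein, was higher in T20 than in SI by 0.73 ± 0.15 (adjusted p = 0.00845). *Rab7a*, a small GTPase, fell with S by 0.48 ± 0.08 (adjusted p = 0.000437), and *Faf2* rose in SI against CI by 0.24 ± 0.06 (0.0144). With only the arrays of the diets compared, *Mettl7a* (0.0582) and *Faf2* (0.0531) did not pass. *Hsd17b11* was higher in SI than in CI by 0.26 ± 0.07 (0.0167). With equal median and spread that difference was 0.15 (0.457) and after quantile normalization 0.16 (0.0946). The call was also lost with only the SI and CI arrays (0.0918) and on leaving out CI replicate 4 (0.0532) or SI replicate 5 (0.052). Of 13 transcription factors with known control over these genes, 1 was called in T20 against C, 1 in S against C, 1 in SI against CI and 0 in T10 against C, with the same shares of all probe sets as background. A count of 1 in 13 is no result about this list. *Mlxipl*, the carbohydrate-responsive factor ChREBP, fell with T20 by 0.59 ± 0.12 (adjusted p = 0.0038), and with only the T20 and C arrays it did not pass (0.0679). *Ppara* and *Pparg* did not pass the F test (adjusted p = 0.166 and 0.457).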

How the data were processed

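Liver RNA of 30 rats was hybridised as biotinylated cRNA, 1 animal per array, per the labels' protocols. The values that the authors deposited are intensities for each probe set, made by the SuperNORM data service, per the labels; its reference level, filters and version are not given in the sources used here. Of 31099 probe sets 57 controls were left out. Values under 16 (143 were 0, in 48 probe sets) were set to 16 before taking log2, and probe sets whose mean exceeded the 40th percentile (7.388, intensity 167.6) were tested. Symbols came from the platform annotation: 20826 probe sets had 1, 436 several and 9780 none, and 20758 of the first matched a current record. The probe set of highest mean represents a gene.

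A group-means model over all arrays used limma 3.58.1 (R 4.3.3; mean-variance trend, 24 residual degrees of freedom, two-sided), with 10 contrasts and an F test. Arrays of a diet are biological replicates, per the labels. Identical normalization parameters stand on the arrays of C replicate 3 and CI replicate 3, whose values correlated at 0.966, within the 0.943 to 0.978 found between arrays of different groups; both were kept. Members and lists were chosen with earlier results of these data known. Up to 4 genes per list, of smallest p among those past the F test, were named. *Pnpla2*, *Abhd5*, *Ppara*, *Pparg*, *Serpina1*, *Cyp2e1* and *Gfap* were added after their values were seen, as were *Lipe*, *Cfd*, *Slc2a4* and *Fabp4*. On simulated data for T20 against C (18625 probe sets) 58.2% of 1.5-fold, 87.9% of 2-fold and 100% of 4-fold changes were recovered, with 8 false calls of 172. Alternatives were 3 other scalings (median centring, quantile normalization, and equal median and spread), floors of 1 and 64, no filter or a 60th percentile filter, no variance trend, averaged probe sets, array weights, the replicate block, only the groups compared, a threshold of 0.01, and arrays left out singly or in 3 sets. Figures: matplotlib 3.10.9, Python 3.11.15.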

Additional observations from a re-analysis of the deposited data

Results flagged for a closer look

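Among 48 sets of 5 livers (8 probe sets in 6 diets) 4 held a liver far from the others by Dixon's test, where chance gives about 1 in 20. *Plin2* on 1390383_at was 14.84 in C replicate 1 and 13.86 to 14.11 in the other C livers. *Plin4* was 8.51 in S replicate 2 and 8.04 to 8.15 in the other S livers. *Plin5* was 8.33 in SI replicate 4 and 7.52 to 7.67 in the other SI livers. *Cidea* was 9.63 in S replicate 4 and 8.87 to 9.06 in the other S livers; without it, S against C was 0.53 (adjusted p = 0.0636).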

How the results depend on the processing

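Both counts of *Plin3* against C, 1 of 7 members for T10 and 1 of 7 for T20, were the same under all alternatives run, except that T20 had 0 at a threshold of 0.01. Counts of 0 members in T20 against T10, CI against C, SI against S and the interaction stayed at 0 under all alternatives run. At a threshold of 0.01 the members called were 1 across the 6 diets and 0 in S against C, SI against CI and T20 against CI. For SI against CI (1 member) the count was 2 after quantile normalization, 2 after median centring and 2 with the replicate block, and 0 with only the groups compared; with equal median and spread it was 1, *Cidea* in place of *Cideb*. For T20 against CI (1 member) it was 2 after quantile normalization, 2 with the mean of probe sets and 2 with the replicate block. It was 0 after median centring, 0 with equal median and spread, 0 with only the groups compared, 0 without both arrays of shared parameters and 0 without the last 2 arrays of both tofu diets. For T20 against SI (0 members) it was 2 after quantile normalization, 2 after median centring, and 1 with the 60th percentile filter, array weights, the replicate block or the last 2 arrays of both tofu diets left out. The cause of these changes was not tested. With each array left out in turn the count ran from 1 to 4 across the 6 diets, 0 to 1 in S against C, 0 to 2 in SI against CI, 0 to 1 in T20 against CI and 0 to 1 in T20 against SI.

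Over 87 member results and 3963 alternative values, 51 lost and 24 gained a call, and 128 changed sign, 0 of them among called results and the largest at 0.163. Same-numbered arrays of different diets correlated at 0.0451 on average in their deviations from the group means (-0.277 to 0.35), and different-numbered arrays at -0.0113. Of 75 same-numbered pairs 22 were over 0.1, and 9 of 30 arrays lay nearest their own number. These values cannot show whether livers of the same number share an effect in a single gene. The replicate block gave the same calls in T20, T10 and S against C. With it *Plin2* passed across the 6 diets (0.0171) and in T20 against CI (0.0273), and *Cidea* in SI against CI (0.0389). With 5 livers per diet the number of arrays limits the precision, and *Plin5* lay near the filter level.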
